A study of Mus musculus with 2 samples.

Results

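The genes described here encode the oxidative phosphorylation system of mitochondria or help to assemble it. They were taken by name, as all symbols in the feature lists of both libraries that start with Nduf, Uqcr, Atp5, Cox4 to Cox8 or mt-, which gave 101 of 27998 genes. Of these, 88 are nuclear genes and 13 lie on the mitochondrial genome. The nuclear members comprise 38 complex I genes, 7 complex I assembly factors, 8 complex III genes, 18 complex IV genes and 17 genes named for ATP synthase. The mt- members comprise 7 complex I genes, 1 complex III gene, 3 complex IV genes and 2 ATP synthase genes. The symbols follow an older nomenclature, so that a few members are known for other roles than their prefix: Cox7a2l assists the assembly of respiratory supercomplexes, Atp5sl is not a subunit of ATP synthase, and the NDUFA4 protein is now counted as a subunit of complex IV. Counts by complex follow the prefix, so that Ndufa4 and its paralogue Ndufa4l2 stand among the 38 Nduf genes listed under complex I.

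The libraries came from the epidermis of 2 male C57BL/6J mice at postnatal day 0, 1 single-cell RNA sequencing library per mouse. Both mice were Chrm3 KO, that is, they lacked the M3 muscarinic acetylcholine receptor gene in every tissue, so all values below are of knockout epidermis. Wild-type epidermis was not analysed here, and no effect of genotype was tested. Skin had been held overnight in a separation buffer, the epidermis was taken off the dermis, and dead cells were depleted with a kit before the cells were loaded. In this assay captured transcripts are tagged with unique molecular identifiers (UMIs), and each is counted once. The UMI count therefore gives the number of captured transcripts of each gene in each barcoded cell. A lower count in summed cells can stand for fewer transcripts per cell or for fewer cells with transcripts, and these cannot be told apart in a sum.

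Mouse 1 had 10816 barcodes with 109756784 UMIs and mouse 2 had 15867 with 166441732. The study's filter, which asks for 900 to 7700 detected genes and less than 10% of UMIs from mitochondrial genes, left 7607 and 11881 cells with medians of 10480 and 10580 UMIs. Of these, 34 barcode sequences occurred in both libraries. Chrm3 itself had 13 and 19 UMIs in these cells, and since the counts do not show which part of a transcript was read, they do not check the genotype. Cells were clustered with the members kept out of the clustering genes and named from marker genes. Among keratinocytes (KCs) of the interfollicular epidermis (IFE) the stages were basal, dividing basal, transition, differentiated and terminally differentiated. The other classes were hair follicle-like, sebaceous-like, melanocyte-like, Langerhans cell-like, T cell-like, dermal-like and Merkel cell-like cells. Together the named classes held 6361 and 10065 of the kept cells. The rest fell in clusters left unnamed and entered no stage or cell type sum. Unnamed clusters held 1380 cells in the clustering of all cells, and 660, 606, 304 and 112 cells in that of IFE cells. The terminally differentiated class held only 57 and 84 cells, with medians of 6384 and 17670 UMIs. For the tests, UMIs were summed per mouse and class, so n = 2 mice throughout. Cells were not used as replicates.

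Complexes I, III and IV of the inner mitochondrial membrane pass electrons to oxygen and pump protons, and ATP synthase uses the proton gradient to make ATP. Complex I takes electrons from NADH, complex III passes them from ubiquinol to cytochrome c, and complex IV reduces oxygen. Their core hydrophobic subunits are encoded by the mitochondrial genome, transcribed by a dedicated polymerase, and combine with many nuclear-encoded subunits that are imported from the cytosol. In the epidermis, KCs lose their mitochondria and other organelles as they cornify.

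The nuclear promoters of this system are known for sites of NRF1, of the ETS factor GABPA and of YY1. A RefSeq promoter on GRCm38.p6, from 250 bases before to 50 bases after the transcription start, was matched for 73 of the 88 nuclear members, 3 of them by an older symbol. The NRF1 core GCGCANGCG stood on either strand in 20 of the 73, which is 27.4%, beside 7.03% of all 27025 genes with a promoter in the table. The YY1 letters AAGATGGCG were found in 8 members (11.0%, beside 1.64% of all genes) and the ETS letters CCGGAAGT in 5 (6.85%, beside 4.31%). At least 1 of these motifs stood in 41.1% of the member promoters and in 11.9% of all. The most highly counted member with each motif is shown, 5′ to 3′ on the strand of the gene, with the motif in capitals. Atp5g2, which encodes the c subunit of ATP synthase, holds the NRF1 core at chr15:102670998-102671297 (minus strand), overlapping on both strands. Uqcrh, the hinge subunit of complex III, holds the ETS letters at chr4:116075021-116075320 (minus strand). Atp5j, a stalk subunit of ATP synthase, holds the YY1 letters at chr16:84834927-84835226 (minus strand).
Atp5g2: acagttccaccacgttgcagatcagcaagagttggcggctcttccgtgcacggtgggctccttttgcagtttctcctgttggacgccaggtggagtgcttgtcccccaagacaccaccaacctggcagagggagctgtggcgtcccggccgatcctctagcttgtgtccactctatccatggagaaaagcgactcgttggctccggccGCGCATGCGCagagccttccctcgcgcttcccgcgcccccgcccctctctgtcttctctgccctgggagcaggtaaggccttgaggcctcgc
Uqcrh: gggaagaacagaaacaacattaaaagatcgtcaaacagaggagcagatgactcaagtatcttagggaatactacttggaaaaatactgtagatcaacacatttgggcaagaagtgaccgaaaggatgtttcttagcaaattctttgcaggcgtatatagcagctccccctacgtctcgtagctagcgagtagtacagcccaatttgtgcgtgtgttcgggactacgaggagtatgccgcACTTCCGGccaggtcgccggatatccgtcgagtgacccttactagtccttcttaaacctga
Atp5j: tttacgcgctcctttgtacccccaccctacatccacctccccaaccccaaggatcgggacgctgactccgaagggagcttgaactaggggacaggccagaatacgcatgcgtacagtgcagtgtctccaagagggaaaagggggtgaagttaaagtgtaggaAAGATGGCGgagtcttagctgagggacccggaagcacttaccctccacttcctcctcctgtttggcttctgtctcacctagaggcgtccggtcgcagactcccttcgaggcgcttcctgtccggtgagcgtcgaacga

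The summed level of the nuclear members was highest in sebaceous-like cells, next highest in melanocyte-like cells and lowest in dermal-like cells. As a share of all UMIs of nuclear genes it was 2.38% in mouse 1 and 2.52% in mouse 2 in basal KCs, and 2.28% and 2.36% in differentiated KCs. Dividing basal KCs had 2.45% and 2.58%, transition KCs 2.34% and 2.51%, and terminally differentiated KCs 2.26% and 2.42%. In all of these stages mouse 2 lay above mouse 1, and the values of neighbouring stages overlapped, but both values of differentiated KCs lay below those of basal and dividing basal KCs. Sebaceous-like cells stood apart with 4.001% and 3.973%, the highest of all classes in both mice. They were followed by melanocyte-like cells with 2.86% and 2.94%, which also lay above both values of every class but the sebaceous-like. Hair follicle-like cells (2.34% and 2.54%), Langerhans cell-like cells (2.40% and 2.58%), Merkel cell-like cells (2.49% and 2.57%) and T cell-like cells (2.52% and 2.65%) overlapped with IFE KCs (2.37% and 2.51%) or lay just above them. The dermal-like cells, a group of 39 and 69 cells, had the lowest values with 1.99% and 2.25%. With 2 mice per class an exact permutation test of a summed share cannot go below a two-sided p of 0.333, so these sums are given without a test.

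The mt- members had another order. In cells under the 10% limit they made up 6.28% and 5.72% of all UMIs in basal KCs, 5.69% and 5.46% in differentiated KCs and 5.65% and 5.39% in sebaceous-like cells. Hair follicle-like cells had 5.21% and 4.84%. Langerhans cell-like cells had 4.63% and 4.07%, with both values below those of every IFE stage. The means of dermal-like (4.377%) and T cell-like cells (4.605%) were likewise below the mean of every IFE stage. The sebaceous-like class, with the highest nuclear level, was thus not the highest for the mt- members. The ratio of mt- to nuclear UMIs was 1.497 and 1.434 there, beside 2.674 and 2.344 in IFE KCs. The limit itself bounds these shares, since no kept cell can have over 10%.

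**Figure D1:**
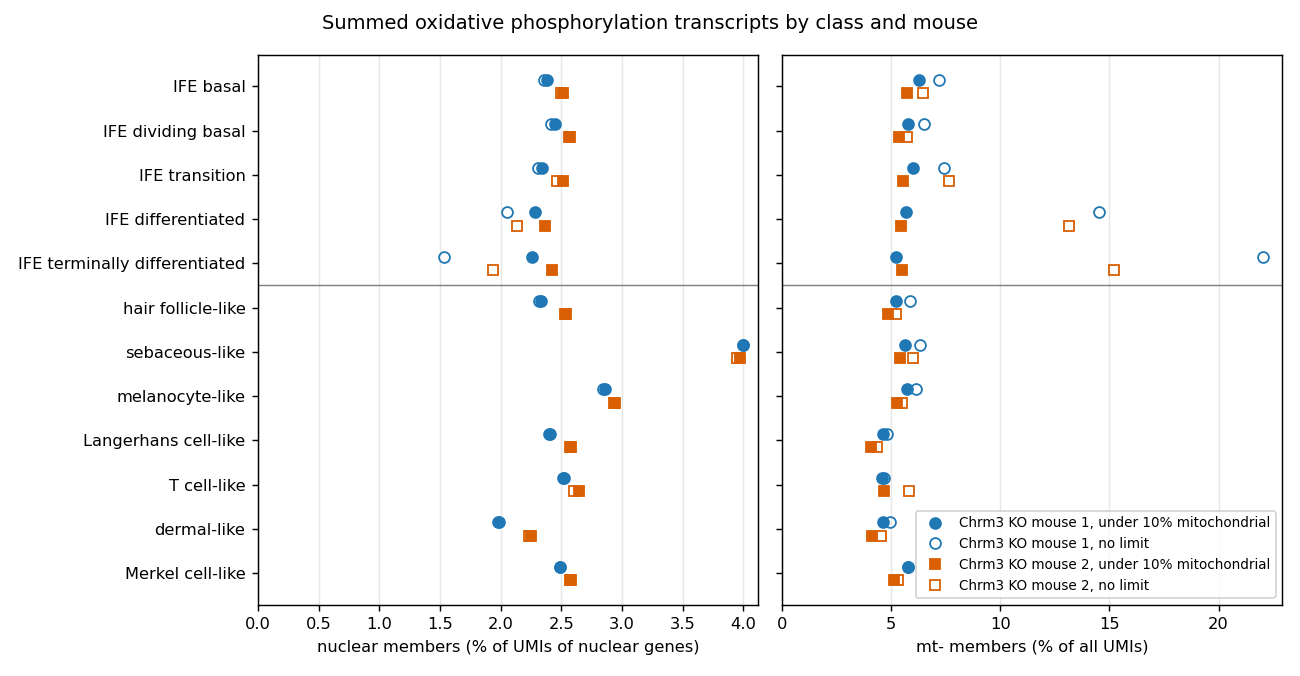
Summed oxidative phosphorylation transcripts in each class, with the nuclear members as a percentage of the UMIs of nuclear genes (left) and the mt- members as a percentage of all UMIs (right). Each symbol is 1 mouse, filled for cells under the 10% mitochondrial limit and open without the limit. Sebaceous-like cells (4.001% and 3.973%) stand to the right of all others on the left panel, and without the limit differentiated (14.5% and 13.2%) and terminally differentiated KCs (22.03% and 15.19%) do so on the right panel.

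Between basal and differentiated KCs the nuclear members did not move as a block. In the quasi-likelihood test of edgeR, adjusted by Benjamini-Hochberg over 12046 genes, 32 of 83 tested nuclear members were higher in differentiated KCs and 10 were lower, beside 27.8% of all genes called higher and 28.5% called lower. The median log2 fold change of the members was 0.21, against -0.03 for all genes. A fit with the mouse as a block called 53 higher and 15 lower. Its spread between sums was estimated smaller over all genes (biological coefficient of variation 0.0334, against 0.0887 in the main fit). Where a count under an alternative stands without the share of all genes in that fit, it shows only how the calls changed. The fold changes of the main fit are relative to a scaling by TMM, which sets the bulk of genes as unchanged. Scaled by plain library totals, the median of all genes was -0.19, that of the members 0.04, and the split was 18 higher and 19 lower, so the direction of the group depends on the scaling, while the members lay above the median gene under both. The summed share, which is taken without TMM, was lower in differentiated KCs. The median member was higher by 0.21 with TMM, but by only 0.04 on plain library totals, the scaling nearer to that of the share. The TMM factors were 0.8988 and 0.9069 in differentiated and 1.018 and 1.007 in basal KCs. Cox4i1, Cox7a2l and Uqcrh, which carry many UMIs, were among the members that fell.

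By complex, the higher calls lay mostly in complex I, with 20 of 38 genes higher and 2 lower, and a median of 0.26. Ndufa4 and Ndufa4l2 are among the 20. Complex IV had 6 higher and 3 lower of 13 tested genes, complex III 3 and 2 of 8, and ATP synthase 3 and 3 of 17. Of the 7 assembly factors 0 were called by edgeR or DESeq2, and 0 had an unadjusted p under 0.05. Ndufaf4 (log2 0.55 ± 0.30) was called higher once the mouse was a block. The complex IV share of nuclear-gene UMIs was 0.604% and 0.636% in basal KCs and 0.511% and 0.539% in differentiated KCs so that both differentiated values lay below both basal values. This share holds Cox4i1 and Cox7a2l, 2 highly counted genes (means of 1200 and 665 CPM) that were lower (log2 -0.63 and -1.12). With 6 complex IV genes called higher, the lower share does not stand for the complex IV genes in general. The ATP synthase share was also lower without overlap, by less (0.776% and 0.810% against 0.752% and 0.758%). The complex I share was 0.734% and 0.771% in basal and 0.769% and 0.791% in differentiated KCs. These values overlapped between the mice, but within each mouse the share was higher in differentiated KCs.

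Ndufa4l2 had the largest increase of the Nduf genes. It encodes a paralogue of NDUFA4, not a complex I subunit, that is known to be induced under low oxygen, and lies at chr10:127514967-127517154. Its level was 23.1 and 20.2 CPM (UMIs scaled to a common total, with TMM) in basal KCs of mice 1 and 2, and 154 and 119 CPM in differentiated KCs. Both differentiated values lay far above all basal, dividing basal (16.0 and 15.7) and transition values (33.7 and 15.2), and terminally differentiated KCs had 76.7 and 54.9 CPM. The difference between differentiated and basal KCs was 2.66 ± 0.21 on the log2 scale (SE, adjusted p = 3.76e-07). In terminally differentiated against differentiated KCs it fell by 1.12 on the log2 scale (adjusted p = 0.00579).

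Several small accessory subunits rose as well. Ndufc1, an accessory subunit of complex I, went from 76.7 and 101 CPM in basal KCs to 168 and 207 CPM in differentiated KCs (log2 1.07 ± 0.18). Uqcr11 and Uqcrq, small subunits of complex III, rose by 0.81 ± 0.17 and 0.78 ± 0.16, and Cox6a1, the general isoform of its complex IV subunit, by 0.77 ± 0.08 (adjusted p = 4.35e-06). Uqcr11 and Cox6a1 were already higher in transition KCs. Among the 3 genes that encode the same mature c subunit of ATP synthase, Atp5g1 rose from 524 and 610 to 929 and 952 CPM (log2 0.73 ± 0.10, adjusted p = 5.33e-05). Atp5g3 went the other way, from 250 and 248 to 194 and 185 CPM (log2 -0.39 ± 0.08, adjusted p = 0.000791). Atp5g2 had a log2 change of -0.17 ± 0.08, which did not pass the test (adjusted p = 0.0939). The opposite directions of Atp5g1 and Atp5g3 were the same on plain library totals (0.57 and -0.56).

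The members that fell were fewer and included some of the most counted genes. Cox7a2l went from 936 and 885 CPM in basal KCs to 433 and 405 CPM in differentiated KCs, with no overlap (log2 -1.12 ± 0.08, adjusted p = 1.13e-07). It was lower already in dividing basal (594 and 605) and transition KCs (690 and 673). Cox4i1, the widely expressed isoform of the largest nuclear complex IV subunit, fell from 1490 and 1430 to 957 and 928 CPM (log2 -0.63 ± 0.07). Uqcrh fell from 717 and 759 to 428 and 447 CPM (log2 -0.75 ± 0.09), and Uqcrc1, a core subunit of complex III, by 0.56 on the log2 scale (SE 0.13). Atp5sl, counted at only 21.7 and 18.4 CPM in basal KCs, fell by 0.94 on the log2 scale (SE 0.18). Cox6b2, an isoform known from testis, had 13.8 and 13.6 CPM in basal, 23.1 and 23.9 in dividing basal and 1.91 and 1.19 in differentiated KCs (log2 -3.16 ± 0.29, adjusted p = 1.61e-06). Uqcrh has a copy in RefSeq that is named with its prefix and -ps, the mark of a pseudogene. So do 8 other members (Atp5c1, Atp5k, Atp5l, Cox5b, Cox7c, Ndufa12, Ndufab1 and Ndufs5). Their counts are uncertain where reads could come from a copy. Copies under other names were not looked for, so other members may have them too.

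**Figure D2:**
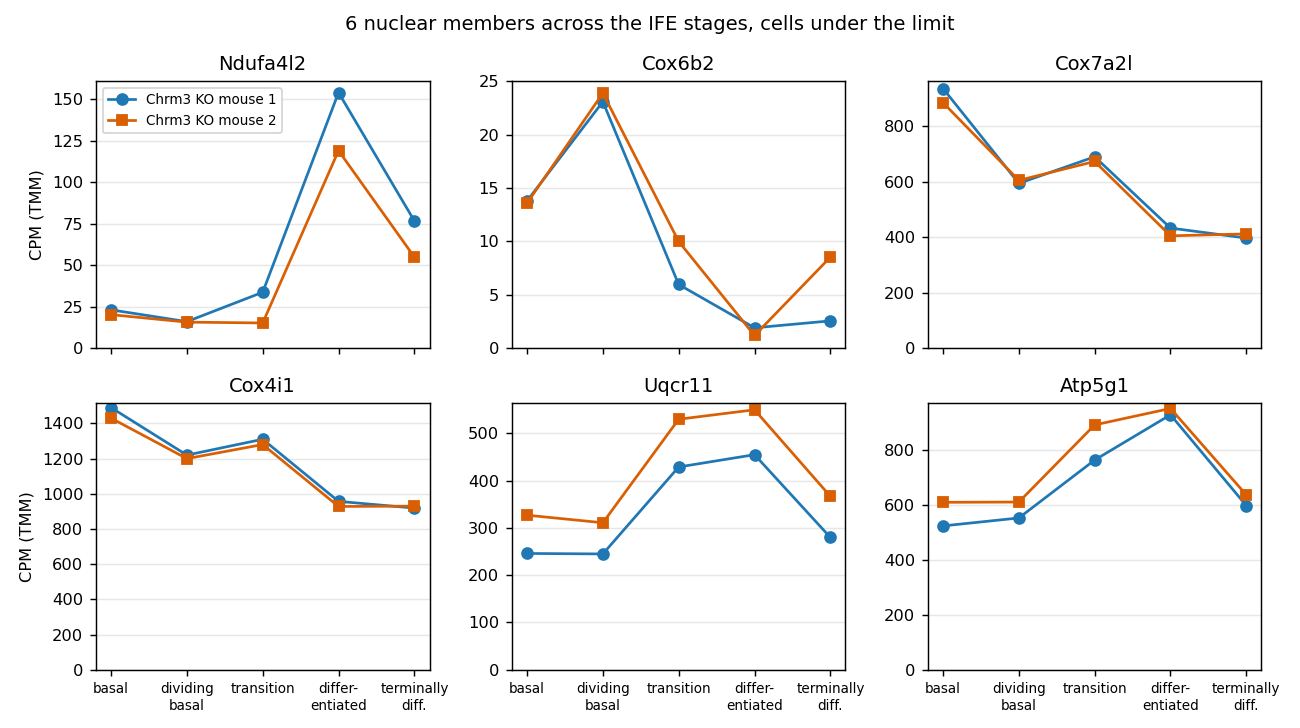
Level of 6 nuclear members in the IFE stages, in CPM scaled by TMM, with 1 line per mouse and cells under the 10% mitochondrial limit. Ndufa4l2 peaked in differentiated KCs at 154 and 119 CPM, Cox7a2l and Cox4i1 were highest in basal KCs, and Uqcr11 and Atp5g1 were highest in differentiated KCs of both mice.

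Cox6a2, the heart and muscle isoform of its subunit, was counted in few cells. It had 0 UMIs in basal KCs of both mice, 1 and 0 in dividing basal, 4 and 3 in transition, 12 and 18 in differentiated and 1 and 3 in terminally differentiated KCs. Scaled to library totals, transition (1.31 and 0.64 CPM) and terminally differentiated KCs (1.43 and 1.73 CPM) were not far from differentiated KCs (1.72 and 2.15 CPM), at or near the level of the floor of 3 UMIs. Set against that floor in the basal sum of each mouse, the level in differentiated KCs was at least 7.89-fold higher in mouse 1 and at least 17.3-fold higher in mouse 2. Cox6a2 stands among the members called higher in differentiated against basal KCs, but it passed the count filter only through the later stages. That call is therefore no separate support for the difference. The size of the fitted change depends on the prior count and is not a bound. The summed muscle markers were at 7.28 and 7.47 CPM in differentiated KCs and at 4.04 and 4.46 CPM in basal KCs, and their part in this result was not tested. The differentiated class was led by Krt79, one of the hair follicle markers, beside Krt1 and Krt10. Its hair follicle marker sum was 4030 and 3700 CPM against 2080 and 2140 CPM in basal KCs. Krt79 alone had 2020 and 1670 CPM, against 41.9 and 59.2 CPM in basal KCs. Of 21 hair follicle markers 3 were enriched in the differentiated cluster. The part of hair follicle cells in the stage differences was not tested.

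In dividing basal against basal KCs the fit without the mouse as a block called 2 nuclear members higher and 4 lower of 83, beside 11.5% and 6.19% of all genes. The higher genes were Cox6b2 (log2 0.78 ± 0.17, adjusted p = 0.00755) and the assembly factor Ndufaf2 (0.40 ± 0.13, adjusted p = 0.0484), of which the latter was not called under 8 of the alternatives. The lower genes were Cox7a2l (-0.60 ± 0.08), Uqcrh (-0.37 ± 0.09), Ndufa13 (-0.31 ± 0.09) and Cox4i1 (-0.27 ± 0.07). The counts were 16 higher and 13 lower with the mouse as a block, and on plain library totals 6 and 2.

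In transition against basal KCs 11 nuclear members were higher and 4 lower, beside 12.1% and 11.8% of all genes. Uqcr11 (log2 0.75 ± 0.17), Atp5g1 (0.55 ± 0.10), Cox6a1 (0.48 ± 0.08), the complex IV subunit gene Cox7b (0.45 ± 0.10) and Atp5d, the delta subunit of ATP synthase (0.37 ± 0.08), were the largest increases. The lower genes were Cox6b2, Atp5sl, Cox7a2l and Uqcrh. The blocked fit called 43 higher and 5 lower. The median of all genes was -0.15 on plain library totals and the counts were 5 and 7, so here too the direction of the group depends on the scaling. In cells under 5% mitochondrial UMIs 1 was higher and 1 lower, beside 3.23% and 3.0% of all genes.

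In terminally differentiated against differentiated KCs 29 of 83 nuclear members were lower and 1 was higher, beside 15.8% and 14.2% of all genes, with a median log2 fold change of -0.27. Complex I had 17 lower genes of 38, ATP synthase 6 of 17, and complexes III and IV 3 each. The largest falls after Ndufa4l2 were those of Ndufs8, an iron-sulphur subunit of complex I (89.2 and 88.5 to 42.2 and 60.8 CPM, log2 -0.71 ± 0.13), Ndufb2 (-0.63 ± 0.20), Uqcr11 (-0.62 ± 0.18) and Atp5g1 (-0.60 ± 0.10). The higher gene was Cox6b2, whose level was 2.56 CPM in mouse 1 and 8.53 CPM in mouse 2, so that the increase was seen mainly in mouse 2. Blocking by mouse gave 51 lower and 3 higher. The median of all genes was 0.22 on plain library totals, and 5 members were lower and 8 higher, so the lower calls hold only relative to the bulk of genes. In cells under 5% mitochondrial UMIs 2 were lower and 2 higher, beside 9.58% and 11.7% of all genes, with a median of -0.10. Terminally differentiated cells also differed in depth between the mice, and their dividing G2/M marker sum (3190 and 3560 CPM, against 447 and 514 in differentiated KCs) moved with the class. So did the S phase sum (1270 and 1230 against 240 and 269 CPM), the melanocyte sum (235 and 130 against 10.2 and 76.7 CPM) and Krt28, a keratin of the hair follicle (258 and 302 against 10.5 and 20 CPM). The hair follicle sum was lower (2380 and 3240 against 4030 and 3700 CPM), but it holds Krt79, which was at 173 and 390 against 2020 and 1670 CPM. Of 21 hair follicle markers 13 were enriched in the terminally differentiated cluster. The part of these in the result was not tested.

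With the limit kept, the fit without the mouse as a block called few mt- members in dividing basal, transition or differentiated against basal KCs. Of all genes 11.5%, 12.1% and 27.8% were called higher in these 3 comparisons, and 6.19%, 11.8% and 28.5% lower. Of the 13 mt- members, none was called in transition against basal KCs by edgeR or DESeq2, and 1 was higher at an unadjusted p under 0.05. The blocked fit called 5 higher. In differentiated against basal KCs mt-Nd1, a core subunit of complex I, was higher (3530 and 3290 to 4130 and 4080 CPM, log2 0.27 ± 0.07, adjusted p = 0.00678), and it was not called on plain library totals. The block gave 3 higher and 2 lower. In dividing basal against basal KCs mt-Co1, the catalytic subunit of complex IV, was lower (log2 -0.28 ± 0.09, adjusted p = 0.0406), and 9 were lower with the block. That call was lost under 6 alternatives, among them the fits without the limit, under 5% mitochondrial UMIs, on plain library totals and without called doublets. In terminally differentiated against differentiated KCs 9 of 13 were lower, beside 15.8% of all genes, with called changes from -0.30 for mt-Co2 to -0.39 for mt-Co3. With plain library totals edgeR called 0 of the 13 there, with a median of -0.05.

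Sebaceous-like cells had the largest median difference in the nuclear members among the cell types and stages. Of 82 tested against IFE KCs, 65 were higher and 3 lower, beside 20.7% of all genes called higher and 26.1% called lower, and the median log2 fold change was 0.72, a median fold of 1.64, against -0.17 for all genes. The split was 65 and 4 on plain library totals and 69 and 4 with the mouse as a block. All complexes took part, with 31 of 38 complex I genes, 6 of 8 complex III genes, 10 of 12 tested complex IV genes and 15 of 17 ATP synthase genes called higher. Of the 7 assembly factors 3 were higher, with log2 changes of 1.48 ± 0.20 for Ndufaf4, 1.19 ± 0.16 for Ndufaf3 and 0.49 ± 0.17 for Ndufaf6.

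Ndufab1, which encodes the mitochondrial acyl carrier protein of fatty acid synthesis and is also a subunit of complex I, had the largest increase. Its level was 169 and 172 CPM in IFE KCs and 683 and 568 CPM in sebaceous-like cells (log2 1.87 ± 0.12, a 3.66-fold difference, adjusted p = 1.29e-10). Cox7b rose from 313 and 342 to 1040 and 1000 CPM (log2 1.64 ± 0.15). Ndufb7 (1.55 ± 0.14), Atp5g3 (1.51 ± 0.13) and Ndufs7 (1.5 ± 0.11), a subunit that holds an iron-sulphur cluster, followed. In each of these the 2 sebaceous-like sums lay well above all sums of IFE KCs. The lower genes were Ndufa4l2 (1.54 and 4.29 CPM against 52.4 and 36.1, log2 -3.81 ± 0.41), Cox6b2 (-1.25 ± 0.25) and Atp5sl (-0.62 ± 0.21).

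The sebaceous marker sum of this class was 15300 and 10900 CPM, against 87.1 and 68.3 CPM in IFE KCs. Its hair follicle marker sum was 5720 and 4940 CPM against 2650 and 2520 CPM. Most of that sum was Krt79, with 4990 and 4040 CPM against 470 and 308 CPM in IFE KCs. Of 21 hair follicle markers 2 were enriched in the sebaceous-like cluster. The sebaceous-like cells were deep, with medians of 18230 and 16850 UMIs beside 10400 and 10410 in IFE KCs, and few, with 98 and 148 cells. The part of depth and of follicle cells in the result was not tested. At a finer clustering resolution of 1.2 the class so named held 553 and 775 cells, and the count of called members was 25 higher and 2 lower. Among mt- members mt-Nd1 (log2 0.60 ± 0.13) and mt-Nd3 (0.40 ± 0.15) were higher and mt-Co1 (-0.30 ± 0.12) and mt-Co3 (-0.36 ± 0.12) lower, with a median over the 13 of 0.03. In this comparison 20.7% of all genes were called higher and 26.1% lower. The increases of mt-Nd1 and mt-Nd3 were not called without the mitochondrial limit, nor at resolution 1.2, where their log2 changes were -0.05 and -0.24.

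In melanocyte-like cells 12 nuclear members were higher and 8 lower than in IFE KCs, beside 24.7% and 25.3% of all genes, below those shares in both directions. DESeq2 called 25 higher and 9 lower, beside 28.7% and 25.1% of all genes. Ndufb7 (177 and 202 to 331 and 352 CPM, log2 0.85 ± 0.13), Cox8a (0.72 ± 0.13), Atp5e (0.65 ± 0.21), Ndufa4 (0.63 ± 0.12) and Ndufab1 (0.50 ± 0.12) were higher. Ndufa4l2 (3.75 and 3.70 CPM), Atp5sl, Uqcrc1, Ndufs6 and Atp5g1 were lower. With the mouse as a block the counts were 21 and 13, and on plain library totals, where the median of all genes was 0.13, they were 30 and 5. Of the mt- members mt-Co1 (-0.54 ± 0.12) and mt-Atp6 (-0.35 ± 0.13) were lower, and 4 were lower with the block. The melanocyte marker sum was 10400 and 11500 CPM in this class and 15 and 32.7 CPM in IFE KCs.

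Langerhans cell-like cells, the antigen-presenting cells of the epidermis, showed uneven mt- members. Their marker sum was 29700 and 25500 CPM, against 12 and 9.11 CPM in IFE KCs. mt-Co1 was higher than in IFE KCs, with 11600 and 11100 CPM against 8660 and 8160 (log2 0.44 ± 0.12, adjusted p = 0.00396). mt-Nd2 was lower, with 1600 and 1560 CPM against 3260 and 3320 (log2 -1.06 ± 0.12, adjusted p = 3.02e-07). mt-Cytb, the complex III subunit of the mitochondrial genome, was lower by 0.88 ± 0.12 and mt-Nd1 by 0.85 ± 0.13. In all, 6 of 13 were lower and 1 was higher, beside 26.0% and 25.2% of all genes. As a share of mt- UMIs within a sum, which does not depend on the scaling, mt-Co1 held 19.8% and 20.6% in Langerhans cell-like cells and 13.2% and 13.4% in IFE KCs. mt-Nd2 held 2.74% and 2.89%, against 4.97% and 5.47%. By plain library totals, 10 of 13 were lower and mt-Co1 was not called. Without the mitochondrial limit 12 were lower and 0 higher, beside 27.0% and 25.2% of all genes, and the log2 change of mt-Co1 was -0.27.

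Of the nuclear members 27 were higher and 8 lower in Langerhans cell-like cells, beside 25.2% and 26.0% of all genes. Atp5sl (log2 1.46 ± 0.17), Ndufa13, a complex I subunit also known as GRIM-19 (206 and 219 to 475 and 545 CPM, log2 1.27 ± 0.13), Ndufb7 (1.2 ± 0.14), Cox8a (0.99 ± 0.13) and Ndufv3 (0.99 ± 0.14) were the largest increases. Complex IV had 6 higher and 0 lower of 12 tested genes. Ndufa4l2 (3.20 and 4.94 CPM), the assembly factors Ndufaf4 and Ndufaf2, Ndufs6 and Uqcrc1 had the largest decreases. The median of all genes was -0.38 on plain library totals and the split was 15 higher and 21 lower, so the direction of the group depends on the scaling here as well.

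The largest difference between hair follicle-like cells and IFE KCs was in Ndufa4l2. It had 1.68 and 3.55 CPM there against 52.4 and 36.1 CPM (log2 -4.03 ± 0.24, adjusted p = 7.51e-11), and it was low in sebaceous-like, melanocyte-like and Langerhans cell-like cells as well. Merkel cell-like cells had 40.6 and 56.6 CPM and dermal-like cells 26.0 and 24.0 CPM. The Merkel cell-like sums held only 20 cells in each mouse, with 184635 and 192457 UMIs over all genes, so these levels rest on few UMIs. In all, 17 nuclear members were lower and 1, the complex I gene Ndufa11 (0.51 ± 0.15), was higher, beside 20.3% and 19.9% of all genes. Blocking by mouse gave 37 lower and 2 higher, and plain library totals gave 5 lower and 8 higher. Of the mt- members 8 of 13 were lower, with a median of -0.41, led by mt-Nd4 (-0.55 ± 0.12). The count was 2 on plain library totals. The hair follicle marker sum of this class was 7410 and 5300 CPM, against 2650 and 2520 CPM in IFE KCs, so that the markers separate these classes less than the others. Its largest cluster, of 2125 cells, had 9 G2/M markers and 0 hair follicle markers among its 10 leading genes. A cluster of 1463 cells led by Sfrp1 and Tbx1 also had 0, and a cluster of 1503 cells led by Shh had 1. A cluster of 487 cells was led by the contractile genes Tagln, Myl9 and Acta2, with 0 hair follicle markers. The class rests on its enriched markers in these clusters. Of 21 hair follicle markers, 6 were enriched in the largest cluster and 4 in that led by Sfrp1. The cluster led by Shh had 8 and that led by Tagln 4. The hair follicle-like clusters led by Krt28 and by Krt79 had 14 and 11. In the same clustering the IFE basal clusters led by Pcsk2 and by Pltp had 4 as well, so a count of 4 does not set a cluster apart from IFE KCs. With the clusters left out whose 10 leading genes marked them as dividing, 16 nuclear members were lower and 3 higher, beside 19.1% and 22.3% of all genes. Dividing cells remained in the class. The cluster of 945 cells led by Krt28 was kept, though 20 of 21 S phase and 20 of 20 G2/M markers were enriched in it. In cells under 5% mitochondrial UMIs 3 nuclear members were lower and 1 higher, beside 11.1% and 11.6%. mt-Atp8 and mt-Atp6 overlap on the same strand of the mitochondrial genome (chrM:7766-7969 and chrM:7927-8607), as do mt-Nd4l and mt-Nd4. Reads in these overlaps leave the split within each pair uncertain. mt-Nd5 and mt-Nd6 overlap only at their ends and lie on opposite strands.

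**Figure D3:**
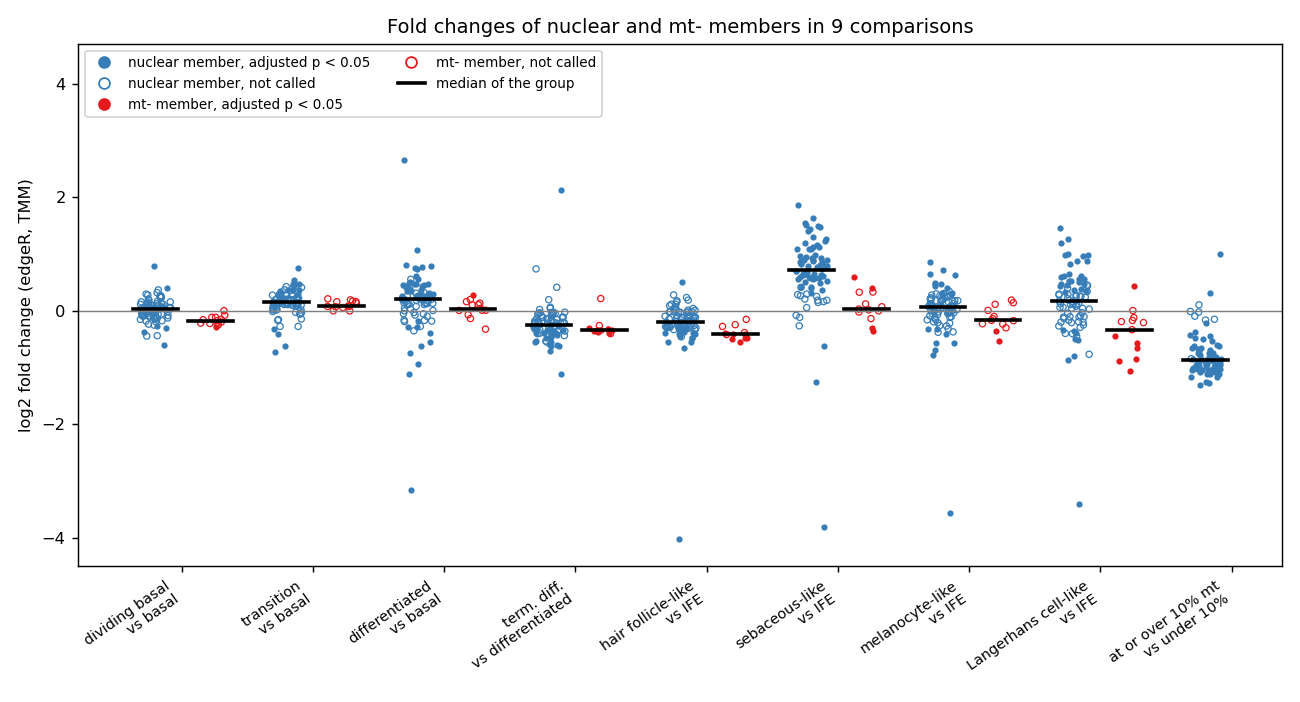
Log2 fold change (edgeR, TMM scaling) of each nuclear member (blue) and mt- member (red) in 9 comparisons, filled where the adjusted p was under 0.05, with a black bar at the median of the group. Cox6a2 is not drawn, since no UMI of it was counted in basal KCs. The sebaceous-like nuclear members (median 0.72) and those at or over the limit (median -0.87) are the groups furthest from 0, and mt- members were left out of the last comparison because they define it.

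The 10% mitochondrial limit did not fall evenly on the classes. Barcodes with 900 to 7700 genes at or over the limit numbered 1615 in mouse 1 (17.5%) and 2073 in mouse 2 (14.9%), and each was assigned to the class whose mean profile it resembled most. Of differentiated KCs the limit removed 58.3% (95% exact binomial interval 54.8 to 61.8) and 58.9% (55.8 to 62.0), and of terminally differentiated KCs 80.5% and 79.2%. In transition KCs it removed 22.4% and 28.5%, in basal KCs 12.4% and 11.2%, and in hair follicle-like cells 12.6% and 8.86%. The fewest were removed from melanocyte-like (5.41% and 3.70%) and Langerhans cell-like cells (2.68% and 2.53%) among the larger classes. The intervals cover counting error only. When kept cells of 1 mouse were assigned in the same way from the profiles of the other, 85.5% and 86.2% of IFE cells returned to their stage, 83.9% and 73.6% of differentiated KCs, 66.9% and 82.9% of dividing basal KCs and 61.4% and 45.2% of terminally differentiated KCs, so the shares removed are uncertain by the assignment as well. The kept cells were deeper (medians of 10480 and 10580 UMIs) than the barcodes over the limit (3972 and 3683). The check therefore does not measure how well barcodes over the limit were assigned.

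**Figure D4:**
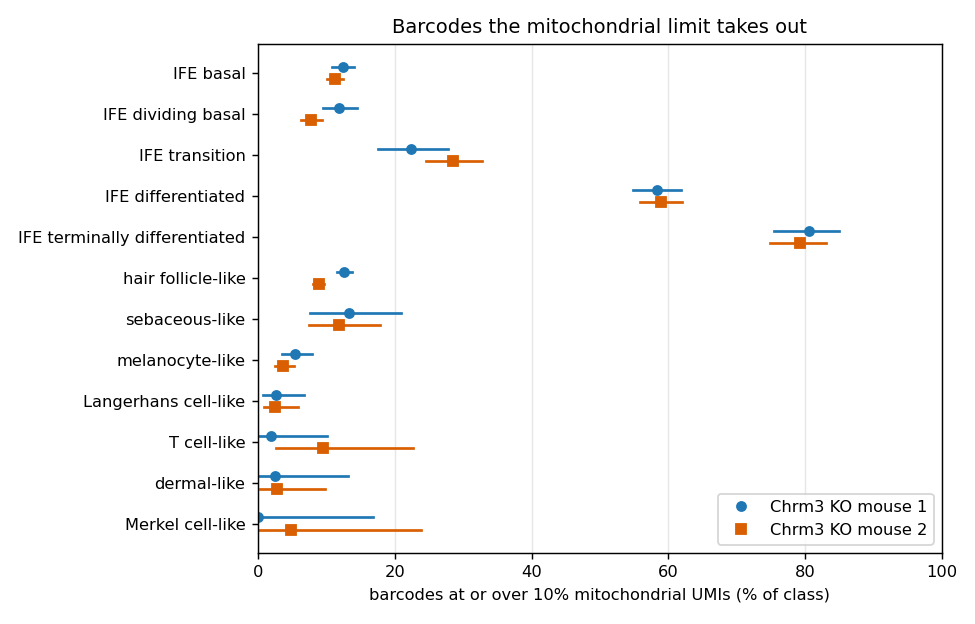
Barcodes at or over 10% mitochondrial UMIs as a percentage of each class, 1 symbol per mouse with its 95% exact binomial interval. Differentiated (58.3% and 58.9%) and terminally differentiated KCs (80.5% and 79.2%) stand apart from all other classes.

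Without the limit the mt- members differed far more between the stages. Their share of UMIs rose to 14.5% and 13.2% in differentiated KCs and to 22.03% and 15.19% in terminally differentiated KCs, but only to 7.21% and 6.45% in basal KCs. All 13 were then called higher in differentiated against basal KCs, beside 28.5% of all genes, with a median log2 fold change of 1.13, where 1 had been called with the limit. In terminally differentiated against differentiated KCs 2 were higher and 0 lower, where 9 had been lower. Of the nuclear members 9 were higher and 20 lower in differentiated KCs, beside 28.5% and 28.8% of all genes, with a median of -0.02 for the members and for all genes. In terminally differentiated KCs 53 were lower and 2 higher, beside 17.2% and 21.9%. Their summed share fell to 2.05% and 2.14% in differentiated and to 1.54% and 1.94% in terminally differentiated KCs. In sebaceous-like cells 69 nuclear members were higher and 3 lower without the limit, beside 20.6% and 26.8% of all genes.

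Barcodes at or over the limit were tested against those under it over IFE and hair follicle-like sums, with mt- genes left out of the counts. Of 85 nuclear members 75 were lower over the limit and 2 higher, beside 29.4% and 26.0% of all genes, with a median log2 fold change of -0.87. On plain library totals the median of all genes was 0.35, that of the members -0.51, and 63 were lower and 5 higher. Complex III had all 8 genes lower, complex I 35 of 38 and ATP synthase 16 of 17. In IFE KCs Cox7a2l had 907 and 904 CPM under the limit and 284 and 317 over it (log2 over both classes -1.31 ± 0.08, adjusted p = 1.9e-06). Atp5e (-1.27 ± 0.17), Uqcrh (-1.25 ± 0.11), Ndufb5 (-1.17 ± 0.08) and Atp5j (-1.16 ± 0.11) followed. Ndufa4l2 (0.99 ± 0.33, adjusted p = 0.0251) and Atp5sl (0.32 ± 0.09) were higher. Cox6a1 was not called, with 277 and 279 CPM under the limit in IFE KCs and 267 and 341 over it, and it was called higher on plain library totals (0.35).

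From 5% upward the fall was graded with the mitochondrial share of the barcode. Over all barcodes the nuclear members held 2.47% and 2.61% of nuclear-gene UMIs where 5 to 10% of UMIs were mitochondrial, 2.16% and 2.23% at 10 to 20%, 1.17% and 1.36% at 20 to 40%, and 0.898% and 1.2% above that. Mitochondrial UMIs are not in this denominator. Below 5% there was no such grade, with 2.42% and 2.44% at 0 to 2.5% and 2.33% and 2.55% at 2.5 to 5%. These bins mix the classes. Within differentiated KCs the level was 1.02% and 1.21% at 20 to 40% and 0.933% and 1.2% above that, so mouse 2 hardly changed there. Other transcripts moved along the same bins. The cytosolic ribosomal protein genes fell from 29.9% and 31.2% at 5 to 10% to 9.04% and 11.0% at 20 to 40%, and the nuclear transcript Malat1 rose from 1.06% and 1.25% to 7.45% and 8.55%. Depth moved too, with medians of 10480 and 10580 UMIs under the limit and 3972 and 3683 over it. The part of these in the result was not tested.

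**Figure D5:**
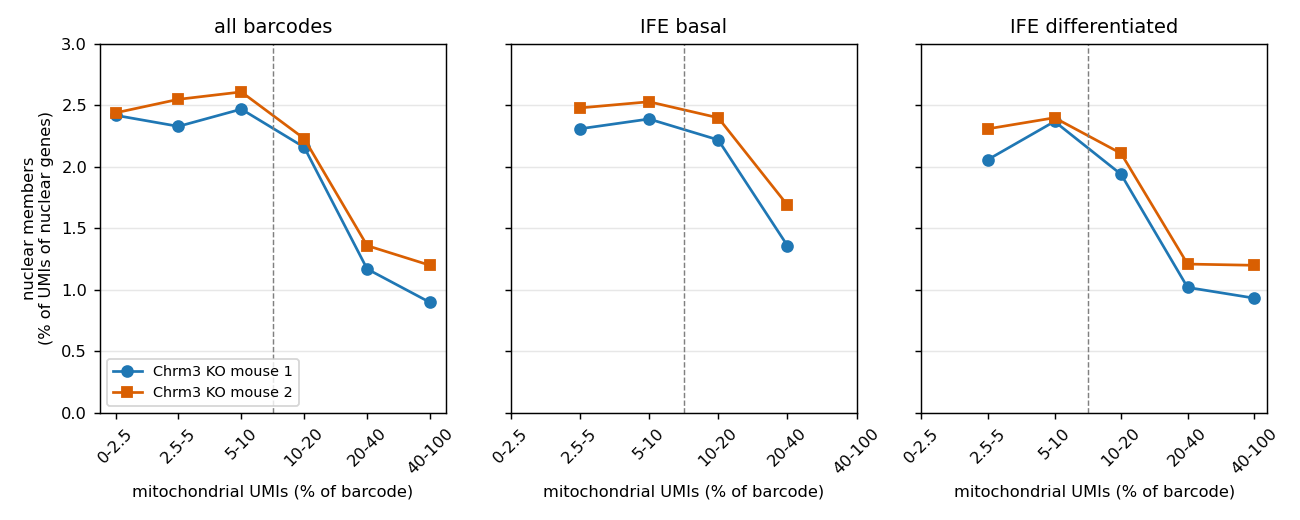
Nuclear members as a percentage of nuclear-gene UMIs in bins of the barcodes' mitochondrial share, for all barcodes, basal KCs and differentiated KCs, 1 line per mouse, with bins of fewer than 20 barcodes left out and the 10% limit as a dashed line. Over all barcodes the level went from 2.47% and 2.61% at 5 to 10% to 1.17% and 1.36% at 20 to 40%.

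Within stages the direction was the same and the size was not. Of 82 tested members 54 were lower over the limit in basal KCs (median -0.61), 56 in transition KCs (-0.79) and 73 in differentiated KCs (-1.35), and 0 were higher in each. Of all genes 12.6%, 10.5% and 28.4% were called lower, and 9.81%, 7.12% and 28.4% higher. At an unadjusted p under 0.05, 1 was higher in basal KCs, 1 in transition KCs and 0 in differentiated KCs. On plain library totals 14, 19 and 68 were lower, with medians of -0.23, -0.35 and -0.97. The difference between the effects in differentiated and basal KCs was tested as an interaction. The fall was larger in differentiated KCs for 24 members and smaller for 0, beside 4.76% of all genes with a lower and 4.39% with a higher interaction, with a median of -0.63. The count was 27 on plain library totals and 61 with the mouse as a block. Ndufa4 (interaction -1.17 ± 0.20, adjusted p = 0.00643) and Ndufs7 (-1.03 ± 0.19) were among them. The mean mitochondrial share over the limit was 19.23% of UMIs in basal and 33.35% in differentiated KCs. The part of this in the interaction was not tested. Ndufa4l2, higher over the limit when classes were pooled, was not called within basal (-0.35 ± 0.33) or differentiated KCs (-0.30 ± 0.19). Markers of later stages moved with the limit as well. Among differentiated KCs the terminally differentiated marker sum was 5620 and 4440 CPM under it and 16900 and 17900 CPM over it. Among basal KCs the suprabasal marker sum was 3690 and 5100 CPM under it and 7000 and 11300 CPM over it, and among transition KCs 20700 and 18400 against 25600 and 29300 CPM. Their part in the result was not tested. Whether the barcodes over the limit are the same kind of cell as those under it was not tested.

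A few members were hardly counted. Cox7b2 and Cox8b had no UMI in kept cells of either mouse, Cox8c had 3 and 3, Cox7a1 had 27 and 61, and Cox4i2 had 32 and 62. These 5 passed the count filter of neither the stage nor the cell type fits, and Cox6a2, with 23 and 25 UMIs, passed that of the stages but not that of the cell types. Cox4i2, Cox7a1 and Cox6a2 were tested in the comparison across the limit and were not called there. All the genes named here are known as tissue-restricted isoforms of complex IV subunits.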

How the data were processed

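Single-cell 3′ libraries of 2 mice were measured. Per the labels' processing notes, the authors used Cell Ranger 3.0.2 and the mm10 genome, and they deposited raw UMI counts per gene and barcode without normalization. The filter of 900 to 7700 genes and under 10% mitochondrial UMIs follows the study's methods. Cells were clustered in Seurat 5.3.0 (2000 variable genes without the members, 30 dimensions, resolution 0.8), first all cells and then IFE cells, and named from marker lists. The members and lists were chosen with earlier results of these data known. Doublets were called with Scrublet in scanpy 1.11.5 and left out only in an alternative. The automatic threshold of mouse 1 marked 0.026% of cells, so that of mouse 2 was used for both (2.30% and 3.50%).

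UMIs were summed per mouse and class and tested with edgeR 4.0.16 (quasi-likelihood, TMM, filterByExpr, Benjamini-Hochberg adjustment, threshold 0.05), with the classes of a fit sharing 1 estimate of the spread. Standard errors are the absolute log2 fold change divided by the square root of F. DESeq2 1.42.0 was an alternative. The same-numbered sums come from the same mouse, and their deviations from the class means correlated at 0.148 to 0.656 over 10 pairs of stages, -0.0126 to 0.611 over 28 pairs of cell types and 0.173 to 0.560 over 6 pairs in the comparison across the limit. Named were the mt- members, the isoform partners of complex IV, Ndufa4 and the c subunit, and in each comparison the 5 called nuclear members with the largest rise and the 5 with the largest fall that moved alike in both mice and averaged at least 10 CPM. Ndufs7 in the interaction and the assembly factors were named outside this rule, after their values were seen. The gene positions are those of GENCODE M21. The scripts were tested on simulated data. P-values of the main fits rest on the spread between 2 mice of 1 genotype within classes, pooled over the classes of a fit. Sums of the same mouse were treated there as independent. With the mouse as a block, differences between the mice that all classes share are taken out of that spread.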

Additional observations from a re-analysis of the deposited data

Results flagged for a closer look

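The fall of nuclear members in barcodes at or over the 10% limit differed between stages. By the interaction term it was larger in differentiated than in basal KCs for 24 members and smaller for 0, as the report gives with the background. Differentiated barcodes over the limit also had the higher mean mitochondrial share (33.35%, against 19.23% in basal KCs), and its part was not tested. Barcodes with fewer than 900 genes, which no comparison used, also held these transcripts. Their mt- UMIs made up 28.05% of all UMIs in mouse 1 and 23.41% in mouse 2, against 5.51% and 5.14% in kept cells. There were 1556 and 1872 such barcodes, and the nuclear members held 1.40% and 1.88% of their nuclear-gene UMIs.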

How the results depend on the processing

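The mouse as a replicate block raised the nuclear calls to 29 in dividing basal, 48 in transition, 68 in differentiated, 54 in terminally differentiated, 39 in hair follicle-like and 34 in melanocyte-like cells, and the mt- calls to 9, 5 and 5 in dividing basal, transition and differentiated KCs and 4 in melanocyte-like cells. In dividing basal KCs it turned the balance to 16 higher and 13 lower. It moved no other count of the stages and cell types by over 1.5 times. On plain library totals, an alternative chosen after the data were seen, the nuclear balance turned in dividing basal (8 calls), transition (12), differentiated (37), terminally differentiated (13), hair follicle-like (13) and Langerhans cell-like cells (36), and melanocyte-like cells had 35 calls. The mt- calls there were 3, turned to lower, in differentiated KCs, 0 in dividing basal and terminally differentiated KCs and 2 in hair follicle-like cells. Atp5g2 (0.24), Cox4i1 (0.26) and Cox7a2l (0.24) turned to higher in terminally differentiated against differentiated KCs, and Cox6a1 (0.35) over the limit.

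Without the mitochondrial limit the nuclear calls were 2 in dividing basal, 7 in transition, 29 (balance turned) in differentiated and 55 in terminally differentiated KCs. With mt- genes also left out, added after the data were seen, they were 2, 7, 24 and 48. The mt- calls were 0, 13 and 2 (turned to higher) in dividing basal, differentiated and terminally differentiated KCs, 13 in hair follicle-like, 10 in melanocyte-like and 12 in Langerhans cell-like cells. In differentiated KCs mt-Atp6 (1.11), mt-Nd2 (0.89) and mt-Nd6 (0.90) turned sign. In terminally differentiated KCs mt-Atp6 (0.18), mt-Co1 (0.72), mt-Co2 (0.29), mt-Co3 (0.29), mt-Cytb (0.12), mt-Nd4 (0.25) and mt-Nd5 (0.39) did. So did mt-Co1 (-0.27) and mt-Co3 (-0.57) in Langerhans cell-like, mt-Co2 (-0.37) in sebaceous-like and mt-Nd2 (-0.42) in melanocyte-like cells.

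With cells under 5% mitochondrial UMIs, which are fewer, the nuclear calls were 2, 2, 27 and 4 over the stages in order and 4 in hair follicle-like cells. The mt- calls were 0 in dividing basal and 2 in differentiated KCs, and 0, 1 and 1 in hair follicle-like, sebaceous-like and melanocyte-like cells. Cox7a2l turned sign in hair follicle-like (0.0635) and melanocyte-like cells (0.0285). At resolution 1.2 the sebaceous-like nuclear calls were 27, and mt- calls were 7 in dividing basal and 1, turned to lower, in differentiated KCs. In its sebaceous-like class Atp5g1 (-0.24), Atp5sl (0.0691), mt-Cytb (-0.35), mt-Nd1 (-0.0487), mt-Nd2 (-0.42) and mt-Nd3 (-0.24) turned sign. It gave no transition class.

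DESeq2 gave 34 nuclear and 5 mt- calls in melanocyte-like cells and 3 mt- calls in dividing basal KCs, and its size factors in edgeR gave 2 of the latter. No filter on low counts gave 10 nuclear and 4 mt- calls in dividing basal KCs, 2 mt- calls in differentiated KCs and 19 nuclear calls, turned to lower, in melanocyte-like cells. Members among the variable genes gave 3 nuclear and 0 mt- calls in dividing basal KCs, 2 mt- calls in differentiated KCs and 55 nuclear calls in terminally differentiated KCs. Leaving out called doublets, or the basal cluster led by Pcsk2 (added after the data were seen), gave 0 mt- calls in dividing basal KCs. With a mouse left out no test remained, and the median log2 fold change of mt- members, sebaceous-like against IFE, was -0.0266 without mouse 1 and 0.0639 without mouse 2. The cause of these changes was not tested. The share of all genes called under each alternative is not set beside these counts. They show how the calls changed, and not a result about the members. The other counts of calls stayed within 1.5 times. The precision in terminally differentiated KCs is limited by their 57 and 84 cells.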

Other observations

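Neighbouring pathways were counted from lists of the same fits, and the share of all genes called is given beside each comparison. In differentiated against basal KCs (27.8% of all genes higher, 28.5% lower) 11 of 17 glycolysis genes were higher and 0 lower, with a median log2 fold change of 0.92, while 3 of 4 genes of complex II, which also belongs to the citrate cycle, were lower and 0 higher. Cycs, which encodes cytochrome c, and Cyc1, the cytochrome subunit of complex III that the name prefixes miss, were higher. Of 76 tested genes of the mitochondrial ribosome, which translates the mt- transcripts, 38 were higher and 8 lower. Without the mitochondrial limit 15 of these were higher and 16 lower, beside 28.5% and 28.8% of all genes. In cells under 5% mitochondrial UMIs 17 were higher and 6 lower, beside 21.3% and 21.3%. In terminally differentiated against differentiated KCs (14.2% and 15.8%) 11 of the 17 glycolysis genes were lower and 0 higher.

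In sebaceous-like against IFE KCs (20.7% and 26.1%) 10 of 13 citrate cycle genes were higher and 1 lower (median 0.88), 53 of 76 mitochondrial ribosome genes were higher and 4 lower, and 3 of 4 complex II genes were higher. Glycolysis was split there, with 5 genes higher and 5 lower. In Langerhans cell-like cells (25.2% and 26.0%) 9 glycolysis genes were higher and 2 lower. Over the limit (26.0% and 29.4%) 69 of 77 mitochondrial ribosome genes and 81 cytosolic ribosomal genes were lower as well.

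Over 24 sums of class and mouse, the genes whose level resembled the summed nuclear members most were Pdss1 (Pearson r = 0.904), Acacb (0.891), Etfb (0.887), Nsdhl (0.887) and Fa2h (0.886), of 8391 genes compared. The sums share libraries and depth, and the sebaceous-like sums lie far from the others, so these are descriptions.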
